A study of Homo sapiens with 24 samples.

Results

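The comparison described here is between cells targeted at LHX2 and cells targeted at TRAC in the atrial protocol, and it rests on 6 of the 24 libraries of the study, 3 in each group. The cells were HES3, a human embryonic stem cell line, carrying green (GFP) and red (mCherry) fluorescent reporters at NKX2-5 and NR2F2, and all groups of the study share that reporter background. Knockouts were made with CRISPR-Cas9, and targeting of TRAC, the constant region of the T cell receptor alpha chain, served as the control, so the controls were also cut and handled as edited cells. Cells were differentiated toward heart muscle as embryoid bodies with a protocol that modulates Wnt signalling, for at most 14 days, and the atrial cultures received retinoic acid on day 4. The other groups used below are cells targeted at ZNF503 or ZNF711 in the atrial protocol, and cells targeted at LHX2 or TRAC in the ventricular protocol, which received no retinoic acid, with 3 libraries each. AM and VM in the labels were taken to stand for the atrial and the ventricular protocol. The labels do not give the guides, the number of clones, the editing rate or the day of each harvest. Nothing in them says that the 3 libraries of a group came from separate cultures. The spread was estimated over all 24 libraries in 8 groups, so p-values measure spread between libraries of a group, which may be technical.

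LHX2 is a LIM-homeodomain transcription factor. Proteins of this family bind DNA through a homeodomain and carry LIM domains that recruit the adaptor LDB1 and, through it, single-stranded DNA binding proteins (SSBP). LHX2 is best known from forebrain, eye and limb development, and in the mouse embryo it is also active in the pharyngeal mesoderm that gives rise to head muscle and part of the heart. Its relative ISL1 marks second heart field progenitors and the sinoatrial node.

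LHX2 RNA was close to the limit of detection in both groups, so the counts do not check the label. The LHX2-targeted libraries held 3, 2 and 11 counts of LHX2 in replicates 1, 2 and 3, and the TRAC-targeted libraries held 3, 4 and 13. The fitted log2 fold change of LHX2 was 0.09 with a standard error (SE) of 0.71 (edgeR adjusted p = 0.975). A deletion that leaves the transcript in place would not lower these counts, and the labels do not give the site of the cut. TRAC had 1, 1 and 7 counts in the LHX2-targeted libraries and 3, 8 and 19 in the TRAC-targeted ones and was too low to be tested. Of the 20 genes listed as LIM-homeodomain factors and their partners, 16 were tested and none was called at an adjusted p below 0.05, while LHX9 and LMX1A had no count in any of the 6 libraries. LDB1 came nearest. Its level was 205, 200 and 199 CPM (each count brought to one fixed library total, after scaling by the trimmed mean of M values) in the LHX2 group and 257, 261 and 254 CPM in the TRAC group. The groups did not overlap, but the log2 fold change of -0.36 (SE 0.10) missed the threshold (adjusted p = 0.0785).

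The LHX2-targeted libraries were shallower than their controls. Replicates 1, 2 and 3 held 2899786, 3686010 and 5093067 counts, against 5340447, 6353517 and 5548351 in the TRAC-targeted libraries. A floor of 3 counts corresponded to 0.568 to 0.960 CPM in the LHX2 group and 0.466 to 0.545 CPM in the TRAC group. Protein-coding genes took a mean of 95.6% of the counts in the LHX2 group and 95.7% in the TRAC group. With counts of every library thinned to the total of the shallowest, 124 genes were called, of which 112 were among the 201 called at full depth.

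At an adjusted p below 0.05, 201 of 17724 tested genes (1.13%) differed between the LHX2-targeted and TRAC-targeted atrial libraries, 81 higher (0.457%) and 120 lower (0.677%) with LHX2 targeting. The changes were small. The median log2 fold change was 0.63 among the genes that rose and -0.66 among those that fell, and 16 and 26 of them respectively reached a size of 1. All 81 and all 120 had the same sign in each of the 3 same-numbered pairs of libraries. The genes were called by a fit over all 24 libraries that includes these pairs, so the shared sign is no separate support for the calls. The groups did not overlap in 76 of the 81 and 116 of the 120, where 9.29% of all tested genes had every LHX2 library above every TRAC library and 9.72% every LHX2 library below. Of the called genes 68 of the 81 that rose and 107 of the 120 that fell were protein-coding, as were 14352 of the 17724 tested. The fit took same-numbered libraries as pairs, and without that replicate block no gene was called (1372 genes at an unadjusted p below 0.05, lowest adjusted p 0.131). The number called also depended on single libraries: it was 180 without LHX2 replicate 1, 17 without LHX2 replicate 2 and 6 without LHX2 replicate 3, and 29, 103 and 58 without TRAC replicates 1, 2 and 3. Scaling to library size alone left the total at 230 but turned the split to 147 higher and 83 lower.

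**Figure D1:**
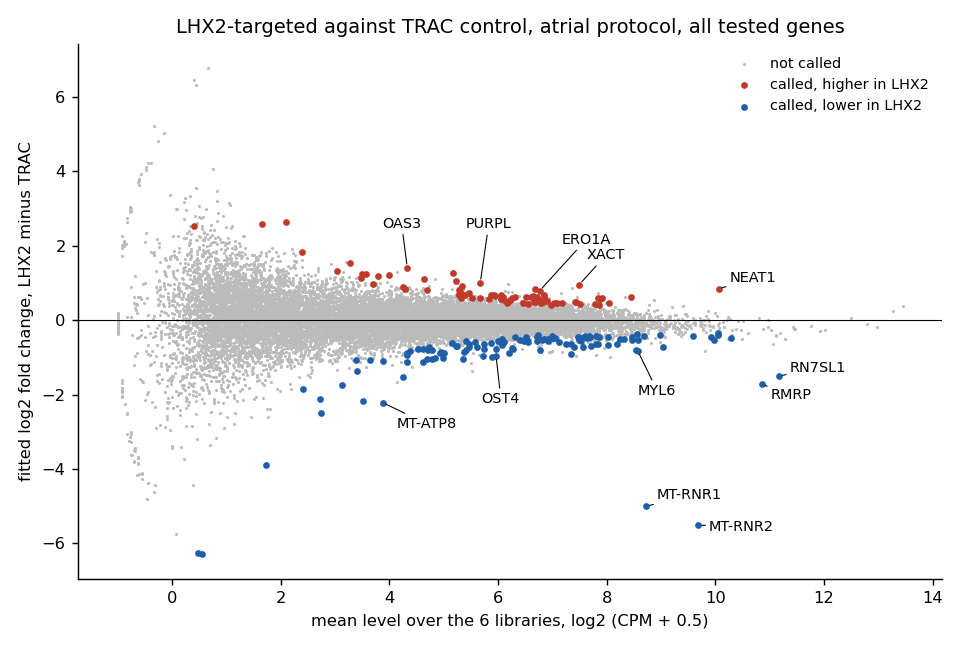
Fitted log2 fold change (LHX2 minus TRAC) of each tested gene in the atrial protocol, against its mean level over the 6 libraries as log2 (CPM + 0.5). Grey points were not called, and red and blue points are the 81 genes called higher and the 120 called lower, most of them within 1 log2 unit of zero. MT-RNR1 and MT-RNR2 lie far below the other abundant genes.

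The gene with the lowest p was OST4 (ENSG00000228474), which fell 1.94-fold. OST4 is a very small membrane subunit of the oligosaccharyltransferase, the enzyme complex that attaches N-linked glycans to proteins entering the endoplasmic reticulum. The gene lies at chr2:27070472-27071773 on the minus strand (GRCh38, GENCODE 29), overlaps AGBL5, and is protein-coding. Its whole coding sequence, read from GENCODE 29, is shown because it is only 37 codons long, with the start and stop codons in capitals.
OST4 coding sequence: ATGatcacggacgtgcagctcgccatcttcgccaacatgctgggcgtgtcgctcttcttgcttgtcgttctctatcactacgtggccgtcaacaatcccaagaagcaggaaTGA
OST4 stood at 39.3, 41.5 and 45.3 CPM in LHX2 replicates 1, 2 and 3 and at 69.9, 81.3 and 94.2 CPM in TRAC replicates 1, 2 and 3. Every LHX2 library was below every TRAC library. The log2 fold change was -0.96 (SE 0.13, edgeR adjusted p = 0.000296). OST4 was called in all 9 fits that left out a library or a replicate number, but with a correction for gene length its change was -0.52 (adjusted p = 0.0675), and without the replicate block its adjusted p was 0.233. The other 11 oligosaccharyltransferase genes were not called: the catalytic subunits STT3A and STT3B had log2 fold changes of -0.05 and 0.06, and the list median was -0.03 against -0.01 over all tested genes.

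MYL6 fell 1.79-fold. It encodes the essential light chain of nonmuscle and smooth muscle myosin II and lies at chr12:56158161-56163496 on the plus strand, where the annotation also places SMARCC2 and MYL6B in overlap. Its level was 281, 289 and 250 CPM in the LHX2 libraries and 487, 496 and 480 CPM in the TRAC libraries. The spread within each group was far smaller than the gap between them. The log2 fold change was -0.84 (SE 0.12, edgeR adjusted p = 0.000296). In bulk libraries fewer cells of a type and less RNA per cell cannot be told apart. MYL6 was called in all 9 fits that left out a library or a replicate number and after correction for GC content and gene length together (-0.73, adjusted p = 0.000716), but not without the replicate block (adjusted p = 0.131). Of the 20 nonmuscle actomyosin genes, 3 fell, where 0.677% of all tested genes did, and none rose. MYL6 is 1 of the 3 and was given with the experiment, so its call adds no support from the list. Their median was -0.16 against -0.01 over all tested genes. The other 2 that fell were CFL1 (cofilin, which severs actin filaments; -0.50, SE 0.12, adjusted p = 0.0268) and PFN1 (profilin, which delivers actin monomers; -0.44, SE 0.10, adjusted p = 0.0268). With correction for GC content 1 of the 20 was called and the median was -0.072. With only the groups compared 7 were called. The neighbouring light chain gene MYL6B had a log2 fold change of -0.44 that missed the threshold (adjusted p = 0.183).

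PURPL rose 2.01-fold. It is a long noncoding RNA induced by p53 that dampens p53 levels, and it lies at chr5:27472292-27496401 on the plus strand, overlapping no other gene of the annotation. Its level was 92.8, 47.9 and 60.8 CPM in LHX2 replicates 1, 2 and 3 and 48.8, 21.3 and 31.6 CPM in TRAC replicates 1, 2 and 3. The groups overlapped, since replicate 1 was highest in both, and each LHX2 library was above the TRAC library of its own number. The log2 fold change was 1.01 (SE 0.16, edgeR adjusted p = 0.00214). It had an adjusted p of 0.577 without the replicate block and of 0.0666 without replicate 1. The 250 bases before the RefSeq start of PURPL, at chr5:27472042-27472291 (GRCh38.p14, plus strand), are shown because they hold an exact match to the full p53 consensus site, set in capitals, which begins 127 bases before the start.
PURPL promoter: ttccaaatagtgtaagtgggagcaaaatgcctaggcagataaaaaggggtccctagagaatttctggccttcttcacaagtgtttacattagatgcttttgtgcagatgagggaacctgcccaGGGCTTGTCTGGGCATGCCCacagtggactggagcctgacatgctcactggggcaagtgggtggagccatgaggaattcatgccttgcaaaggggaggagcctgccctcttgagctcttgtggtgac
Such a match with 0 bases between its 2 decamers, on either strand, was found in 5 of 27305 promoters of the same length (0.0183%) and in 3 of the 12430 promoters of tested genes (0.0241%). A wider search that allowed 0 to 13 bases between them, and so includes these, found 8 of 27305. Of the 23 promoters found for the listed p53 targets, only that of PURPL held a match in either search. The match is a description of the letters in the window and not a measurement of binding.

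ERO1A rose 1.73-fold. It encodes the oxidase that supplies the endoplasmic reticulum with oxidising equivalents for disulfide bonds, and it is a known target of the hypoxia-inducible factors. The gene lies at chr14:52639916-52695900 on the minus strand. Its level was 129, 140 and 145 CPM in the LHX2 libraries and 78.9, 80.5 and 78.2 CPM in the TRAC libraries. All LHX2 libraries were above all TRAC libraries, and the 3 controls were almost level. The log2 fold change was 0.79 (SE 0.13, edgeR adjusted p = 0.00336), and after correction for GC content it was 0.61 (adjusted p = 0.0121). Its adjusted p was 0.165 without the replicate block, 0.0666 without replicate 1 and 0.131 without replicate 2. The 250 bases before its RefSeq start, at chr14:52695559-52695808 (GRCh38.p14, minus strand), hold the core of the hypoxia response element, ACGTG, once on the opposite strand, so that it reads CACGT in the capitals here, beginning 114 bases before the start.
ERO1A promoter: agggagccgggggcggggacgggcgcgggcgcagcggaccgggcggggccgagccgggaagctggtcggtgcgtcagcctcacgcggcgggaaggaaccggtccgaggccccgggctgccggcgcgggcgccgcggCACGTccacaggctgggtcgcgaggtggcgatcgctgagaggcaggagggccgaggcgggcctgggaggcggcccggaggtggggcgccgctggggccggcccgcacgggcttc
ACGTG occurred on either strand in 18.7% of all 27305 promoters and in 22.5% of the 12430 found for tested genes, and in 31.7% of the 60 promoters found for genes that rose and in 13.5% of the 89 found for genes that fell. The homeodomain core TAATTA, searched on both strands, occurred in 4.49% of all promoters, in 2.2% of those of tested genes, in 3 of the 60 (5%) and in 0 of the 89.

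**Figure D2:**
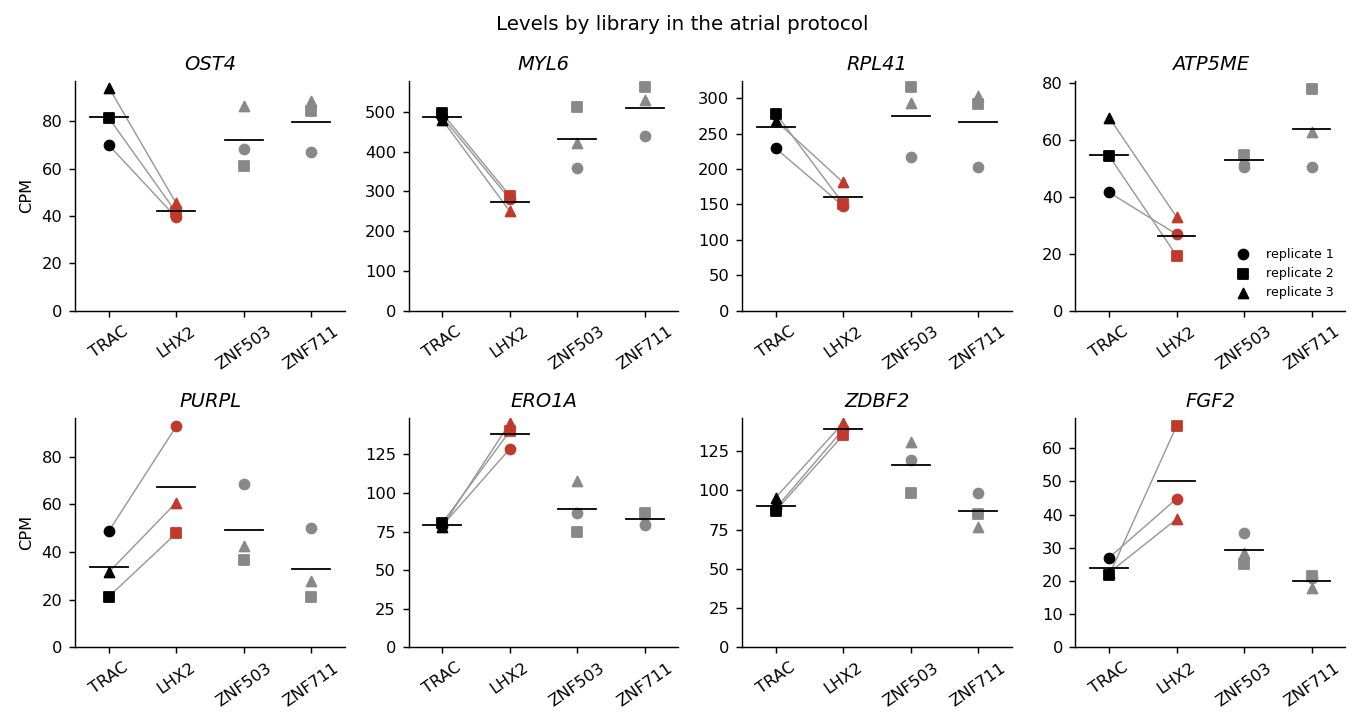
Level in CPM of 8 genes in each library of the 4 atrial groups, with a marker shape for each replicate number, grey lines joining same-numbered TRAC and LHX2 libraries, and a bar at the mean of 3 libraries. OST4, MYL6, RPL41 and ATP5ME lie lower, and ERO1A, ZDBF2 and FGF2 higher, in every LHX2 library than in any TRAC library, while PURPL is higher within each pair only.

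Genes of the cytosolic ribosome gave more called genes than any other of the 26 lists. This list is also among the largest. In smaller lists 2 of 13 mitochondrially encoded and 3 of 20 nonmuscle actomyosin genes were called, all lower. Over all tested genes 0.677% were called lower. Of 79 ribosomal protein genes listed, 77 were tested, 14 fell and none rose, and only 2 had a positive log2 fold change. The median was -0.47 against -0.01 over all tested genes, and it was -0.45, -0.57 and -0.38 in pairs 1, 2 and 3. RPL41 fell most clearly, from 229, 278 and 268 CPM in the TRAC libraries to 148, 151 and 181 CPM in the LHX2 libraries (log2 fold change -0.70, SE 0.12, edgeR adjusted p = 0.00687). RPL41 encodes the smallest protein of the large subunit, and its whole coding sequence of 25 codons is shown for comparison with that of OST4, with the start and stop codons in capitals (GENCODE 29).
RPL41 coding sequence: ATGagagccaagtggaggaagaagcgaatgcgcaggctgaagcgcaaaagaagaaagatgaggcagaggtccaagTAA
Among small-subunit genes RPS15A fell from 61.2, 76.5 and 70.2 CPM to 37.4, 37.1 and 32.4 CPM (-0.96, SE 0.17, adjusted p = 0.00687). The groups did not overlap for either gene. RPL7, RPL34, RPS25, RPL30, RPL10A, RPL37A, RPS27, FAU, RPL35, RPS14 and RPS18 were also called, with log2 fold changes between -0.89 (FAU) and -0.46 (RPL10A). Ribosomal protein genes have many near-identical processed copies, and how the authors' counting split reads between them is not known here. With correction for GC content 6 of the 77 were called, with correction for GC content and gene length 3 were, and the medians were -0.43 and -0.42. Other settings called more of the 77: 34 with DESeq2, 56 with a block within each protocol, 60 with no filter, 22 with a filter at 1 CPM in 3 libraries, 63 with only the atrial libraries and 71 with only the groups compared, while 0 were called without the block. Their medians lay between -0.50 and -0.44. The count also turned on single libraries: 23, 1 and 0 were called without LHX2 replicates 1, 2 and 3, and 1, 5 and 14 without TRAC replicates 1, 2 and 3, with medians from -0.59 to -0.38 over the 6 fits that left out 1 library.

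Of 79 nuclear genes of the respiratory chain and ATP synthase tested, 11 fell, where 0.677% of all tested genes did, and none rose. Of the 79, 10 had a positive log2 fold change, and the median was -0.26. In ATP synthase, the membrane subunit gene ATP5ME stood at 26.9, 19.3 and 33.0 CPM in the LHX2 libraries and at 41.6, 54.4 and 67.9 CPM in the TRAC libraries (-1.04, SE 0.18, edgeR adjusted p = 0.00658). ATP5MJ, a further small subunit of the enzyme that was called outside the list, stood at 30.1, 29.4 and 27.8 CPM against 52.9, 51.3 and 52.8 CPM (-0.86, SE 0.15, adjusted p = 0.00687). For both genes every LHX2 library was below every TRAC library. ATP5F1E and ATP5MF of the ATP synthase, NDUFS5, NDUFB3, NDUFB10 and NDUFB11 of complex I, UQCRC1 of complex III, and COX6B1, COX5B and COX4I1 of cytochrome c oxidase made up the rest, from -0.93 (NDUFB3) to -0.44 (COX4I1). ROMO1, a small inner membrane protein outside the list, fell by 1.12 on the log2 scale. With correction for GC content 6 of the 79 were called, and with correction for both GC content and gene length 2 were and the median was -0.17. With only the atrial libraries 17 were called, and with only the groups compared 22. The number called was 10, 0 and 1 without LHX2 replicates 1, 2 and 3, and 2, 9 and 3 without TRAC replicates 1, 2 and 3.

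The 13 protein-coding genes of the mitochondrial genome all had negative log2 fold changes, with a median of -0.52. Of the 13, 2 were called lower, where 0.677% of all tested genes were. MT-ND4L, a complex I subunit whose reading frame overlaps that of MT-ND4, stood at 46.1, 33.7 and 38.3 CPM in the LHX2 libraries and 68.8, 81.6 and 85.3 CPM in the TRAC libraries (-1.001, SE 0.17, edgeR adjusted p = 0.00535). MT-ATP8, which overlaps MT-ATP6, fell by 2.22 on the log2 scale (SE 0.51, adjusted p = 0.0473). The host reading frames MT-ND4 and MT-ATP6 had log2 fold changes of -0.23 and -0.47 that were not called. The median of the 13 was -0.06 in pair 1 and -0.63 and -0.70 in pairs 2 and 3. With correction for gene length none was called, 2 values were positive and the median was -0.085, with MT-ND4L at -0.24 (adjusted p = 0.685) and MT-ATP8 at -1.33 (adjusted p = 0.227). The number called was 2, 0 and 0 without LHX2 replicates 1, 2 and 3, and 1 without any 1 TRAC library.

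**Figure D3:**
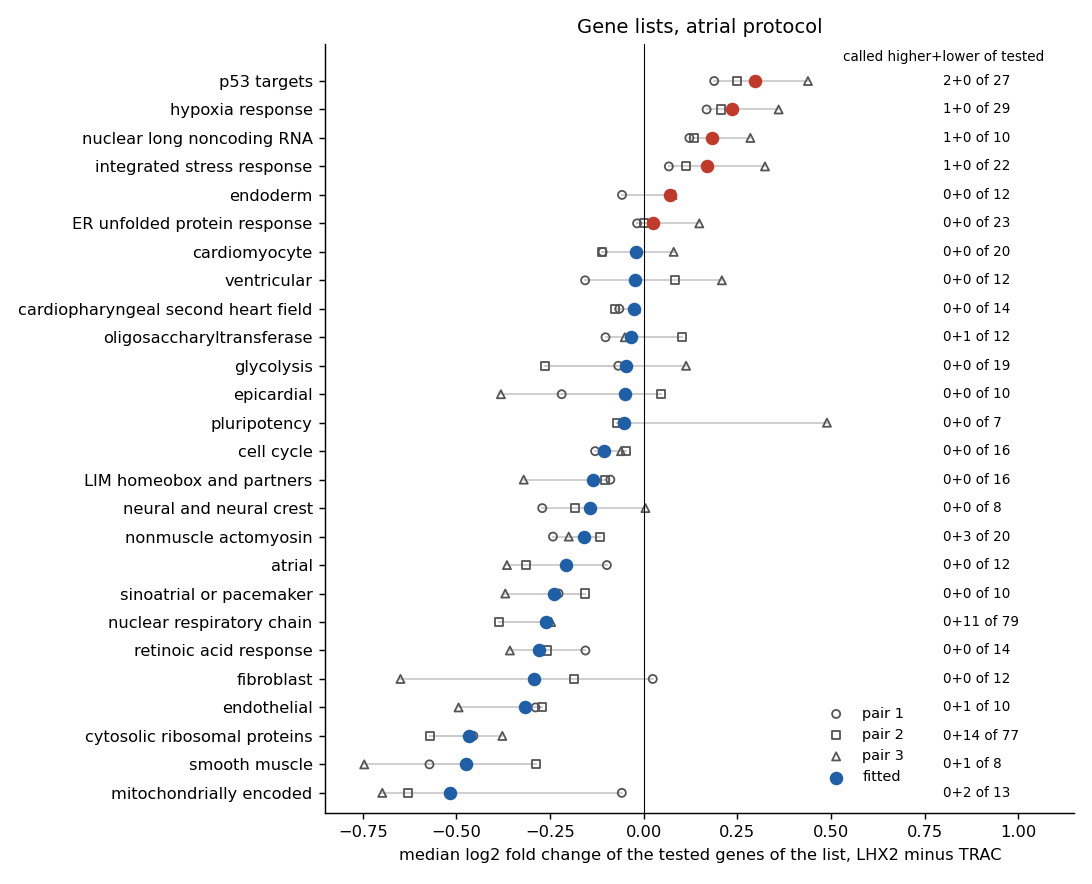
Median log2 fold change (LHX2 minus TRAC) of the tested genes of each of 26 lists, as fitted (filled) and in each same-numbered pair of libraries (open), with the numbers called higher and lower of those tested at the right. The smooth muscle, ribosomal protein and mitochondrially encoded lists lie lowest, and the p53 target and hypoxia lists highest.

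Among genes whose higher group had 50 or more counts in each library, the mitochondrial ribosomal RNAs fell most. MT-RNR1 stood at 30.7, 27.3 and 23.5 CPM in the LHX2 libraries and at 915, 765 and 772 CPM in the TRAC libraries (log2 fold change -5.00, SE 0.83, edgeR adjusted p = 0.0163). MT-RNR2 stood at 40.3, 31.7 and 45.1 CPM against 2098, 1384 and 1334 CPM (-5.51, SE 0.92, adjusted p = 0.0163). Together they took 0.00621% to 0.00766% of the counts of the LHX2 libraries and 0.209% to 0.313% of those of the TRAC libraries. No library of the 2 groups came near the other group. Each of the 2 RNAs was called in 3 of the 9 fits that left out a library or a replicate number, with adjusted p up to 0.281. Without the replicate block each had an adjusted p of 0.131. The labels state that ribosomal RNA was depleted with the KAPA RiboErase kit and also give polyA RNA as the molecule, and the part of RNA preparation in these values was not tested. The same RNAs varied among the other groups: MT-RNR1 ranged from 223 to 383 CPM in the ZNF503 group, from 497 to 2096 CPM in the ZNF711 group, and stood at 82.4, 136 and 808 CPM in the LHX2-targeted libraries of the ventricular protocol.

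Several structured RNAs made in the nucleus fell too. RMRP, the RNA of the endonuclease RNase MRP, stood at 674, 1043 and 864 CPM in the LHX2 libraries and 2209, 3234 and 3077 CPM in the TRAC libraries (-1.72, SE 0.31, edgeR adjusted p = 0.0211). RN7SL1, the RNA of the signal recognition particle, fell by 1.502 and its close copy RN7SL3 by 2.18 on the log2 scale. Reads of these copies cannot be assigned with certainty, and RN7SL1 also overlaps RPS29. Among 4 small Cajal body RNAs tested, 2 fell: SCARNA21, which lies inside CHD3, fell by 1.12 (SE 0.25, adjusted p = 0.025), and SCARNA7, named after its value was seen, by 1.02. MIR3609, inside TRRAP, fell by 1.75. These RNAs are short, and with correction for gene length RMRP had -0.90 (adjusted p = 0.0387), RN7SL1 -0.75 (adjusted p = 0.09), RN7SL3 -1.36 (adjusted p = 0.09), MIR3609 -0.49 (adjusted p = 0.533) and SCARNA21 -0.034 (adjusted p = 0.97). With correction for GC content and gene length SCARNA21 turned to 0.013 (adjusted p = 0.997). In the 9 fits that left out a library or a replicate number RMRP was called in 4, SCARNA21 in 3 and the other 3 in 2 each. Of 53 histone genes tested, 5 fell and 2 had a positive log2 fold change, with a median of -0.58. None of the 15 small nucleolar RNAs or 10 spliceosomal small nuclear RNAs tested was called. Over the 759 long intergenic RNAs tested 465 had a positive value and the median was 0.17. Of the 759, 5 rose and 1 fell, where over all tested genes 0.457% rose and 0.677% fell.

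**Figure D4:**
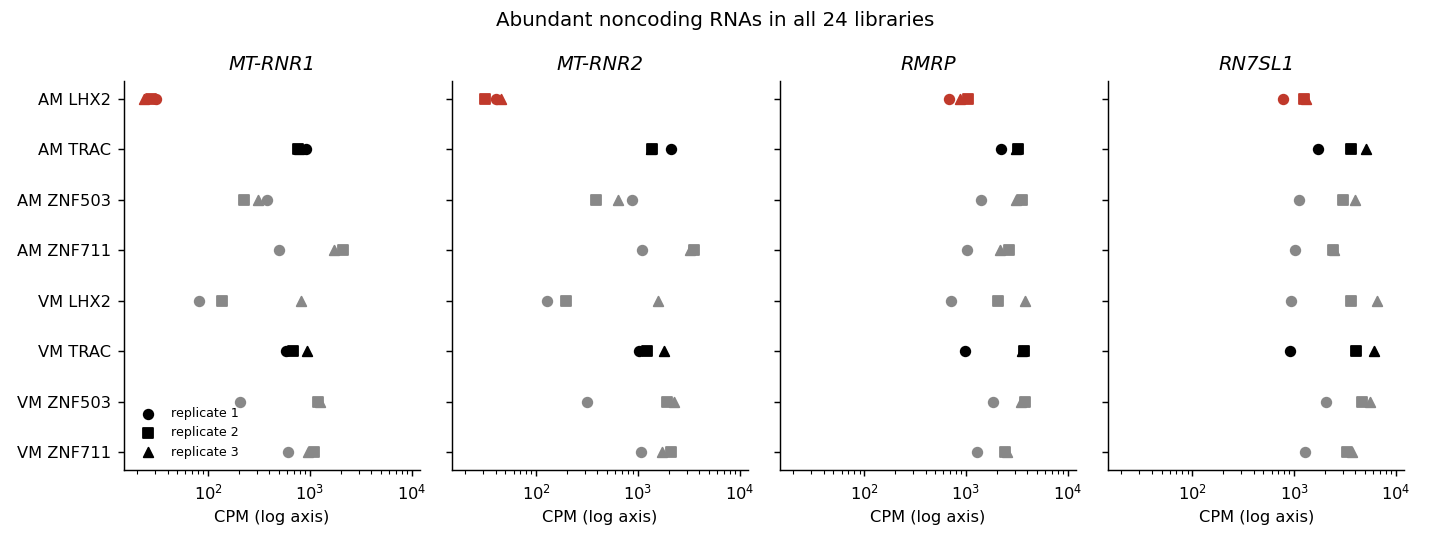
Level in CPM, on a log axis, of noncoding RNAs in each library of the atrial and ventricular groups. MT-RNR1 and MT-RNR2 are lowest in the 3 atrial LHX2 libraries, and 2 of the 3 ventricular LHX2 libraries come next.

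The genes that rose most had varied roles. OAS3, an interferon-induced sensor of double-stranded RNA, stood at 31.7, 32.5 and 21.6 CPM in the LHX2 libraries and 10.1, 12.6 and 9.26 CPM in the TRAC libraries (1.41, SE 0.33, edgeR adjusted p = 0.0286). FGF2, a fibroblast growth factor, stood at 44.8, 66.7 and 38.6 CPM against 27.0, 21.8 and 22.5 CPM (1.05, SE 0.21, adjusted p = 0.0137). XACT, a long noncoding RNA of the X chromosome in human pluripotent cells, stood at 258, 234 and 219 CPM against 115, 93.8 and 161 CPM (0.95, SE 0.22, adjusted p = 0.0492). In these 3 genes the groups did not overlap. ZDBF2, an imprinted gene, was among the most even: 139, 135 and 143 CPM in the LHX2 libraries against 88.6, 87.1 and 95.5 CPM (0.62, SE 0.11, adjusted p = 0.00697). TMED7 (1.27), a cargo receptor between endoplasmic reticulum and Golgi, MATR3 (1.10), a nuclear matrix RNA-binding protein, GMFB (0.91), FAM76B (0.88) and the forkhead factor FOXN2 (0.84) also rose without overlap. TMED7 shares exons with the readthrough gene TMED7-TICAM2, and MATR3 has a second overlapping entry of the same symbol, so their reads may be split. PKD1L2 (1.24) rose with overlapping groups, as did NEAT1 (0.84, SE 0.16, adjusted p = 0.0163), the scaffold of nuclear paraspeckles, which stood at 1962, 1028 and 1119 CPM in LHX2 replicates 1, 2 and 3 and 1116, 604 and 577 CPM in TRAC replicates 1, 2 and 3. NEAT1 was the only one of 10 nuclear long noncoding RNAs called, where 0.457% of all tested genes rose. The median of the 10 was 0.18. Among protein-coding genes that fell most, ART5 (an ecto-ADP-ribosyltransferase), NME1 (a nucleoside diphosphate kinase) and NAA10 (the catalytic subunit of the main N-terminal acetyltransferase) fell by 1.52, 1.37 and 1.09, and the groups overlapped only for NAA10. NME1 overlaps the readthrough gene NME1-NME2. In the 9 fits that left out a library or a replicate number, ZDBF2 and ART5 were called in 5 each and FGF2 in 4. GMFB and NEAT1 were called in 3 each, and XACT, MATR3 and PKD1L2 in 2 each. OAS3, TMED7, FOXN2, NME1 and NAA10 were called in 1 each, and FAM76B in 0. XACT was called in 5 of the 13 other alternatives.

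Targets of p53 lay mostly above zero. The pathway raises cell cycle inhibitors, DNA repair and death genes and its own inhibitor MDM2 after stress. Of 27 targets tested 24 had a positive log2 fold change, and 2 rose, PURPL and RRM2B, where 0.457% of all tested genes did. PURPL was given with the experiment, so its call adds no support from the list. The median of the targets was 0.30 against -0.01 over all tested genes, and it was 0.19, 0.25 and 0.44 in pairs 1, 2 and 3. RRM2B, the p53-induced subunit of ribonucleotide reductase, stood at 64.6, 65.7 and 72.2 CPM in the LHX2 libraries and 44.5, 44.0 and 47.9 CPM in the TRAC libraries (0.57, SE 0.14, edgeR adjusted p = 0.0329). RRM2B was called in none of the 9 fits that left out a library or a replicate number. It stood at 62.0, 55.3 and 65.1 CPM in the ZNF503-targeted atrial libraries, and LHX2 targeting did not differ from those beyond the threshold (0.14, edgeR adjusted p = 0.71). The difference from the ZNF711-targeted libraries was 0.64 (adjusted p = 0.00842). The number of targets called was 1 without any 1 LHX2 library, 2 without TRAC replicate 1 and 1 without TRAC replicate 2 or 3. The values of MDM2 (0.40, adjusted p = 0.0588), SPATA18 (0.98, adjusted p = 0.0757) and the cell cycle inhibitor CDKN1A (0.41, adjusted p = 0.11) missed the threshold, as did those of the death genes FAS (0.57) and BBC3 (0.14). BAX, XPC and EDA2R were the 3 with negative values. The summed level of the list was 1646 to 1863 CPM in the LHX2 group and 1317 to 1417 CPM in the TRAC group. The list median was 0.29 with correction for GC content and 0.30 with correction for GC content and gene length, where 3 genes were called under each. The number called was 5 with DESeq2, 8 with a block within each protocol, 7 with only the atrial libraries and 10 with only the groups compared, and 0 without the block.

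Hypoxia and amino acid stress genes lay on the same side of zero. Of 29 hypoxia response genes tested, 23 had a positive log2 fold change, ERO1A rose and none fell, with a median of 0.23. Over all tested genes 0.457% were called higher. ERO1A was given with the experiment, so its call adds no support from the list, and no other listed gene was called. PLOD2, a collagen lysyl hydroxylase, had 0.51 (adjusted p = 0.0524), and the growth factor VEGFA had 0.28 and the prolyl hydroxylase EGLN3 0.46. The 19 glycolysis genes, many of them also induced by hypoxia, had a median of -0.05 and none was called; GAPDH had -0.25 (SE 0.11, edgeR adjusted p = 0.306). Of 22 genes of the integrated stress response, which ATF4 drives when translation is slowed, 19 had a positive value and MTHFD2 rose, with a median of 0.17. MTHFD2, a mitochondrial folate enzyme, stood at 71.3, 80.6 and 86.2 CPM in the LHX2 libraries and 59.4, 57.4 and 42.5 CPM in the TRAC libraries (0.57, SE 0.15, adjusted p = 0.0441). The groups did not overlap, but MTHFD2 was called in 1 of the 9 fits that left out a library or a replicate number. It stood at 72.7, 85.3 and 81.4 CPM in the ZNF503-targeted atrial libraries and 67.6, 73.0 and 79.1 CPM in the ZNF711-targeted ones. LHX2 targeting differed from those by -0.006 (edgeR adjusted p = 0.996) and 0.12 (adjusted p = 0.695). ATF4 itself had 0.03, ATF3 0.75 (adjusted p = 0.0652) and ASNS 1.07 (adjusted p = 0.26). None of 23 genes of the endoplasmic reticulum unfolded protein response was called, with HSPA5 at 0.20 and a median of 0.03. Promoters of 25 hypoxia genes were found, and 13 of them (52%) held ACGTG, against 22.5% of the promoters of tested genes. The list was chosen for hypoxia response, so this share describes the list and not these libraries.

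Markers of the cardiomyocyte state showed no called change. The label gives cardiomyocytes, and the defining markers were present in all 6 libraries: cardiac troponin T (TNNT2) stood at 486, 279 and 329 CPM in the LHX2 libraries and 502, 280 and 280 CPM in the TRAC libraries. TTN, the giant sarcomere protein, stood at 13149, 11388 and 13265 CPM in the LHX2 libraries and 8863, 10536 and 9858 CPM in the TRAC libraries. Its log2 fold change of 0.37 (SE 0.35, edgeR adjusted p = 0.7) was not called although the groups did not overlap. None of the 20 cardiomyocyte genes tested was called, and their median was -0.02. Of 12 atrial genes none was called, 2 had a positive value, and the median was -0.21. NR2F2, the atrial identity factor tagged in this line, stood at 319, 360 and 320 CPM against 409, 453 and 512 CPM (-0.44, SE 0.20, adjusted p = 0.335). MYL7, the atrial light chain, stood at 370, 367 and 792 CPM against 447, 387 and 910 CPM, with replicate 3 highest in both groups. The ventricular list of 12 genes had a median of -0.02, with no call. The 14 retinoic acid response genes had a median of -0.28 with 3 positive values and no call, and the 10 sinoatrial or pacemaker genes a median of -0.24 with 1 positive value and no call. ISL1 had -0.24 (SE 0.23, adjusted p = 0.712).

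Among lists of other cell types that such cultures hold, the smooth muscle, endothelial and fibroblast genes were mostly lower. In the smooth muscle and endothelial lists 1 gene each was called. Over all tested genes 0.677% were called lower. All 8 smooth muscle genes had negative values, with a median of -0.47 and a summed level of 749 to 961 CPM in the LHX2 group and 1121 to 1800 CPM in the TRAC group. ACTA2, smooth muscle actin, which early cardiomyocytes also express, stood at 344, 442 and 379 CPM against 542, 519 and 911 CPM (-0.74, SE 0.16, edgeR adjusted p = 0.0286). TRAC replicate 3 was the highest library of ACTA2 by a wide margin. Of 10 endothelial genes 9 had negative values, with a median of -0.32 and summed levels of 369 to 606 CPM against 508 to 732 CPM. TIE1, an endothelial receptor tyrosine kinase, stood at 28.8, 42.2 and 28.4 CPM against 50.4, 68.7 and 44.5 CPM (-0.72, SE 0.17, adjusted p = 0.0287). The groups did not overlap for either gene, but ACTA2 was called in 3 and TIE1 in 1 of the 9 fits that left out a library or a replicate number. With correction for GC content no gene of either list was called. TIE1 ranged from 34.6 to 39.3 CPM in the ZNF711-targeted atrial libraries, and LHX2 targeting differed from those by -0.14 (edgeR adjusted p = 0.708). Its difference from the ZNF503-targeted libraries was -0.71 (adjusted p = 0.0604). For ACTA2 the differences from the ZNF503-targeted and ZNF711-targeted libraries were -0.39 (adjusted p = 0.326) and -0.55 (adjusted p = 0.0522). The 12 fibroblast genes had a median of -0.29 against TRAC with no call. That median was uneven over pairs 1, 2 and 3, at 0.02, -0.19 and -0.65. Their summed levels were 9197 to 12178 CPM in the LHX2 group and 11556 to 13207 CPM in the TRAC group. No gene was called in the epicardial (median -0.05), endoderm (0.07), second heart field (-0.03), neural (-0.14), pluripotency (-0.05) or cell cycle (-0.11) lists. Whether the share of these cells takes part in the changes of MYL6, CFL1 and PFN1 was not tested.

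The called genes differed by direction in length and base composition. Genes that rose had a median exon length of 7548 bases and a median GC content (of the longest transcript) of 37.6%, genes that fell had 2713 bases and 55.2%, and all tested genes had 4579 bases and 48.4%. Among genes of at least log2 CPM 4, the median log2 fold change went from 0.27 in the lowest of 10 equal GC bins to -0.15 in the highest, and from -0.21 in the shortest of 10 equal length bins to 0.06 in the longest. The lowest GC bin held 43 genes that rose and 1 that fell. The shortest bin held 52 that fell and 2 that rose. The GC trend was seen in each pair, with 0.23, 0.28 and 0.27 in the lowest bin and -0.22, -0.12 and -0.12 in the highest. In the ventricular protocol the LHX2-targeted libraries went from 0.12 to -0.12 over the same bins, while ZNF503 targeting in the atrial protocol gave 0.01 and 0.03 and ZNF711 targeting -0.08 and 0.09. With the GC trend of each library removed, an alternative chosen after seeing the data, 59 genes were called, of which 48 were among the 201, and with GC content and gene length removed together 30 were called, of which 21 were among the 201. MYL6, PURPL, ERO1A, ATP5MJ, RPS15A, ATP5F1E, RPL7, RPL34, MT-RNR1, MT-RNR2, RMRP and OAS3 were the named genes called after both corrections together.

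**Figure D5:**
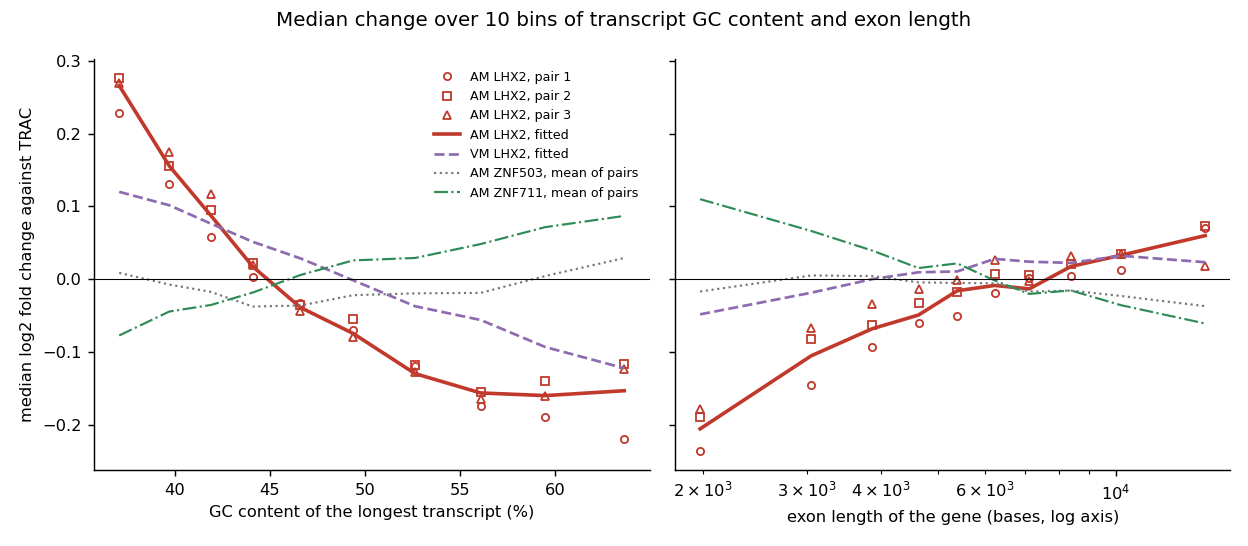
Median log2 fold change over 10 equal bins of genes ordered by GC content (left) and by exon length (right), for genes of at least log2 CPM 4, in atrial LHX2 against TRAC as fitted and in each pair, and in the other comparisons with TRAC. The atrial LHX2 line falls from 0.27 to -0.15 across GC content and climbs from -0.21 to 0.06 across length.

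The same target in the ventricular protocol gave 1 called gene (0.00564% of tested genes), which fell. The test of the difference in LHX2 effect between the protocols called no gene by edgeR (1456 at an unadjusted p below 0.05, lowest adjusted p 0.243) and 10 by DESeq2. For OST4 the ventricular log2 fold change was -0.17 and the difference -0.79 (SE 0.18, adjusted p = 0.277). MYL6 had -0.03 in the ventricular protocol (difference -0.81, SE 0.16, adjusted p = 0.243), PURPL 0.11 (difference 0.90, SE 0.22, adjusted p = 0.317) and ERO1A 0.07 (difference 0.73, SE 0.18, adjusted p = 0.325).

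Against the other targeted cells of the atrial protocol the leading genes were tested directly. Against ZNF503-targeted libraries 25 genes were called (0.141%), 1 higher (0.00564%) and 24 lower (0.135%) with LHX2 targeting, and against ZNF711-targeted libraries 835 were called (4.71%), 368 higher (2.08%) and 467 lower (2.63%). OST4 stood at 68.3, 61.1 and 86.2 CPM in the ZNF503 libraries and 66.8, 84.2 and 88.4 CPM in the ZNF711 libraries, and was lower with LHX2 targeting than in either (-0.78, adjusted p = 0.00789, and -0.93, adjusted p = 0.000362 by edgeR). MYL6 was lower than in either by 0.64 (adjusted p = 0.0104) and 0.89 (adjusted p = 0.000182). ERO1A was higher than in either by 0.62 (adjusted p = 0.0275) and 0.72 (adjusted p = 0.00186). PURPL stood at 68.6, 36.7 and 42.5 CPM in the ZNF503 libraries, between the other groups, and differed from the ZNF711 libraries (1.06, adjusted p = 0.000576) but not beyond the threshold from the ZNF503 libraries (0.45, adjusted p = 0.196). RPL41 was lower than in either by 0.77 (adjusted p = 0.00492) and 0.71 (adjusted p = 0.00142). These comparisons share the LHX2-targeted libraries with each other and with the comparison against TRAC. Without the replicate block the test against ZNF503 called no gene (1157 at an unadjusted p below 0.05) and the test against ZNF711 called 14.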

How the data were processed

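The table deposited by the authors holds raw counts per gene for 62757 genes and 24 libraries. STAR and GRCh38 are named in the submitters' processing notes; the counting program, strand setting and annotation are not given in the sources used here, and without strand, reads of a gene and an antisense partner cannot be told apart. No column was left unmatched. Exon length, GC content, coordinates and coding sequences came from GENCODE 29, which held 58318 of the identifiers, and promoters from RefSeq (GRCh38.p14).

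Genes kept by filterByExpr with a minimum count of 10 (17724) were fitted with edgeR 4.0.16 quasi-likelihood models (robust) over all 24 libraries, with TMM scaling, 8 group means and an additive replicate block (14 residual degrees of freedom). The Benjamini-Hochberg adjustment ran over the 17724 genes in each of 5 comparisons, and a gene was called below 0.05. CPM use TMM-scaled totals, and differences within a pair use log2 of CPM plus 0.5. The replicate number is taken to pair libraries: over 11423 genes, deviations from the group mean correlated by 0.35, 0.29 and 0.41 between same-numbered LHX2 and TRAC libraries and by -0.28 to -0.04 between others. Libraries of a group differed by more than sampling noise, and none was merged.

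Alternatives were relative log expression or library size scaling, other filters, DESeq2 1.42.0, other blocks and library sets, gene length correction, thinned counts and leaving out libraries; GC corrections were chosen after seeing the data. Named genes were LHX2, TRAC, OST4, MYL6, PURPL and ERO1A, the 12 called genes of largest change in each direction with 50 or more counts in each library of whichever group was higher and the same sign in all 3 pairs, the 10 of lowest p, the 2 largest called genes in each direction for the difference between protocols (none was called), the called members of 26 gene lists, and the most abundant member of a list without calls. Other genes were named after their values were seen, and a few genes are not reported here. The genes and lists were chosen with earlier results of these data known. Counting floors and thinning cover counting error only.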

Additional observations from a re-analysis of the deposited data

How the results depend on the processing

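The 201 calls in the atrial LHX2 comparison became 207 with relative log expression scaling, 230 with library size alone (147 higher, 83 lower), 219 with a filter at 1 CPM in 3 libraries, 457 with no filter, 400 with DESeq2, 552 with a replicate block within each protocol, which held all 201, 1305 with only the groups compared and 847 with only the AM libraries. They became 135 with gene length correction, 124 with thinned counts, 59 with GC correction, 30 with GC and gene length correction, and 0 with no replicate block. Leaving out 1 library or 1 replicate number gave 6 to 180. The 1 call of the ventricular comparison became 32 with no filter, 4 with DESeq2, 8 with a block within each protocol and 0 without the block, and 0 to 9 with libraries left out. The 0 calls of the difference between protocols became 42, 10 and 9 under the first 3 of these settings, and 0 to 4 with libraries left out. The 25 calls against ZNF503 became 39 with library size alone, 280 with no filter, 64 with the 1 CPM filter, 218 with DESeq2, 336 with a block within each protocol and 0 without the block, and 0 to 234 with libraries left out. The 835 calls against ZNF711 became 1637 and 14 with the last 2 of these, and 0 to 1025 with libraries left out.

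Direction changed in uncalled genes and SCARNA21: TFAP2A (0.046 with library size alone, 0.021 without the block, 0.065 with GC correction, 0.042 with GC and length correction), AFP (0.044 with library size alone, 0.050 with length correction), MYL7 (0.026 with length, 0.094 with GC and length correction), KRT19 (0.065 with length, 0.10 with GC, 0.16 with both), FN1 (-0.030 with length, -0.016 with GC, -0.066 with both), HCN4 (0.060 with GC, 0.041 with both) and SCARNA21 (0.013 with both). With libraries left out the ranges crossed zero for TFAP2A (-0.27 to 0.15), KRT19 (-0.17 to 0.074), HCN4 (-0.32 to 0.14), FN1 (-0.11 to 0.26), LIN28A (-0.25 to 0.013), MYL3 (-0.43 to 0.34), LHX2 (-0.37 to 0.80), AFP (-0.11 to 0.10) and MYL7 (-0.54 to 0.16). The causes were not tested. The median log2 fold change of all genes was -0.01 as fitted and 0.05 with library size alone. Depth limits the shallow LHX2 libraries: 3 counts were 0.96 CPM in replicate 1, and LHX2 itself could not be measured.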

Other observations

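Some called genes outside the lists and the naming rule were picked out after their values were seen. COL6A1 and COL6A2, chains of collagen VI, had log2 fold changes of -0.46 (SE 0.10) and -0.52 (SE 0.12), COL14A1 had -0.59 (SE 0.15) and COL16A1 -0.75 (SE 0.16). TWIST1, a mesenchymal transcription factor, had -1.08 (SE 0.28, edgeR adjusted p = 0.0492), APLNR, the apelin receptor, -0.78 (SE 0.16, adjusted p = 0.0145), and TPM2, a tropomyosin of smooth and slow muscle, -0.45 (SE 0.10). In each of these 7 genes every LHX2 library was below every TRAC library. The abundant matrix gene FN1, looked up beside them, had 0.06, and 3 of the 12 listed fibroblast genes had a positive value and none was called.

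IFIT2, induced by interferon like OAS3, rose by 1.54 on the log2 scale (SE 0.32, edgeR adjusted p = 0.0163). Other interferon-induced genes looked up beside it were not called: IFIT1 had 0.48 (adjusted p = 0.322), ISG15 0.53 (adjusted p = 0.323), MX1 0.75 (adjusted p = 0.356) and OAS2 -0.06 (adjusted p = 0.985). Of the histone genes that fell, H4C2 had -1.06 (SE 0.20), H4C4 -1.03 (SE 0.24), H2BC8 -1.01 (SE 0.22), H4C5 -0.80 (SE 0.18) and H2BC21 -0.67 (SE 0.14). These near-identical genes share sequence, and their messages mostly lack a polyA tail.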
